A study of Mus musculus with 21 samples.

Results

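The genes described here are the 70 protein-coding genes of the deposited count table whose KEGG annotation places them on the mouse glutathione metabolism map, with Odc1 and Chac1 left out. They were taken by annotation alone from 78317 gene rows, of which 21522 are protein-coding. By role they comprise 27 glutathione transferases, 16 genes of glutathione breakdown and amino acid recovery, 11 peroxidases and the glutathione reductase, 5 enzymes of NADPH supply, 5 enzymes of nucleotide and polyamine synthesis, 3 synthesis genes and 3 others. Of the 70 members, 55 passed the filter on low counts and were tested, 20 of them transferases and 35 of them in other roles. The other 15 are G6pd2, Nat8, Nat8f3, Nat8f5, Nat8f6, Nat8f7, Prdx6b, Gpx5, Gsta1, Gsta13, Gsta2, Gsta5, Gstt4, Hpgds and Mgst2. Hpgds reached 11 counts in its highest library and Prdx6b had 0 counts in every library, where a count of 0 allows up to 0.139 to 0.189 CPM (counts scaled to library size, the unit used below), depending on the library's depth.

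Glutathione is a tripeptide of glutamate, cysteine and glycine and the main small thiol of the cell. Glutamate-cysteine ligase, made of the catalytic subunit Gclc and the modifier subunit Gclm, joins the first pair of amino acids, and glutathione synthetase, Gss, adds glycine. Peroxidases spend glutathione to reduce hydrogen peroxide and lipid peroxides, the reductase Gsr regenerates it with NADPH, and the transferases join it to electrophiles. Transferases fall into soluble classes named alpha, kappa, mu, omega, pi and theta and into membrane-bound microsomal enzymes.

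The cells were E14, an established line of mouse embryonic stem cells, and RNA-seq was done in 7 groups of 3 libraries. One group was kept under standard culture without treatment (ES), 3 groups received vehicle for 3, 5 or 7 days, and 3 groups received vitamin B6 as pyridoxine at 20 uM for 3, 5 or 7 days (VB6). The series title gives endoderm differentiation as the subject, and the labels name no engineered allele and leave the vehicle unnamed. Nothing in the labels tells if a group's 3 libraries are separate cultures, and the p-values then measure only the spread between libraries, which may be technical.

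Depth ran from 15882380 to 21629730 counts per library. All 6 pluripotency markers examined (Pou5f1, Sox2, Nanog, Zfp42, Esrrb, Tfcp2l1) were expressed in the ES libraries, where their summed TPM (the deposited transcript-based scale, which accounts for gene length) was 2160 to 2662. The same sum was 1223 to 1376 in vehicle day 3 and 213 to 256 in vehicle day 7. A summed set of 7 visceral endoderm and hepatic markers went the other way, from 14.4 to 17.2 TPM in ES to 2735 to 2904 in vehicle day 7. The fragment length that fits the deposited lengths averaged 228 nt ± 8.69 (SD, n = 3) in vehicle day 5 and 267 nt ± 7.77 (SD, n = 3) in VB6 day 7, against 308 to 313 nt in the other 5 groups. Those 2 groups also had the highest mitochondrial share of counts, at 4.33% ± 0.216 and 3.32% ± 0.272 (SD, n = 3), against 1.76% to 2.79%. Tests of VB6 against vehicle, and the steps into and out of vehicle day 5, are therefore given both as counted and with an offset per library for the GC content and effective length of genes, called corrected below. Levels and ranks over the 7 groups are as counted.

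The promoter windows of the members are shown for the antioxidant response element core TGACNNNGC (GCNNNGTCA on the other strand), which NRF2, the main activator of glutathione genes under oxidative stress, is known to bind. RefSeq windows on GRCm38.p6, from 250 bases before to 50 bases after a start, were available for 58 members, and 10 of these (17.2%) held at least 1 match. Among all 27025 genes with a window, 14% held one. Transferases held it in 4 of 23 genes and the other roles in 6 of 35. The sequences below show what such a match looks like in 3 genes that rose on leaving ES culture and 2 that fell. These are all of the members' matches that lay before the start and outside the annotated gene, and they were shown after the values were seen. Each is written 5′ to 3′ on the gene's own strand with the match in capitals. Bases within the annotated gene are not shown.
Gclm, chr3:122245393-122245461, + strand: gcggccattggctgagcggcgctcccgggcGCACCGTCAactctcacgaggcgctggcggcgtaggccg
Gstm5, chr3:107895782-107895820, + strand: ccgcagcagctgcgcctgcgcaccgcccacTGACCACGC
Ggct, chr6:54993003-54993071, - strand: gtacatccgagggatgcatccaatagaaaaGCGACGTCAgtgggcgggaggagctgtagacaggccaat
Rrm2, chr12:24708158-24708226, + strand: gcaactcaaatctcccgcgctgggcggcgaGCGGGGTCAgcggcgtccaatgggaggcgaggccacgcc
Gsta3, chr1:21240434-21240502, + strand: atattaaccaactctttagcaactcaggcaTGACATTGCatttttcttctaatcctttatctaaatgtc
The match stood on the gene's own strand in Gstm5 and Gsta3 and on the opposite strand in Gclm, Ggct and Rrm2. A match describes these letters only.

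Over the 7 groups, 23 of the 55 tested members had their highest mean in ES, 5 of the 20 transferases and 18 of the 35 others. Transferases were otherwise highest in VB6 day 3 (5 genes), VB6 day 5 (5 genes), vehicle day 7 (4 genes) and VB6 day 7 (1 gene), and none was highest in vehicle day 3 or day 5. These ranks are of CPM as counted and include the 2 groups with short fragments. On the TPM scale vehicle day 5 had the highest mean for Gstt3 (15.6) and Mgst1 (12.1). On the TPM scale, the most abundant member in ES was the lipid hydroperoxide reductase Gpx4, at a mean of 1079, followed by the alpha class transferase Gsta4 at 425. By vehicle day 7 Gpx4 was still highest at 474 TPM, and the secreted peroxidase Gpx3 came next at 372 TPM, up from 51.3 TPM in ES. The summed TPM of the 27 transferases was 935 ± 16.8 in ES, 949 ± 8.53 in vehicle day 3 and 764 ± 12.2 in vehicle day 7 (SD, n = 3). Within that sum the alpha class went from 429 ± 13.2 in ES to 87.2 ± 4.65 in vehicle day 7, and the mu class from 118 ± 8.55 to 260 ± 2.38, with no overlap between libraries in either class. Nearly all of the alpha class sum was Gsta4, at a mean of 425 TPM in ES and 86.5 in vehicle day 7.

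**Figure D1:**
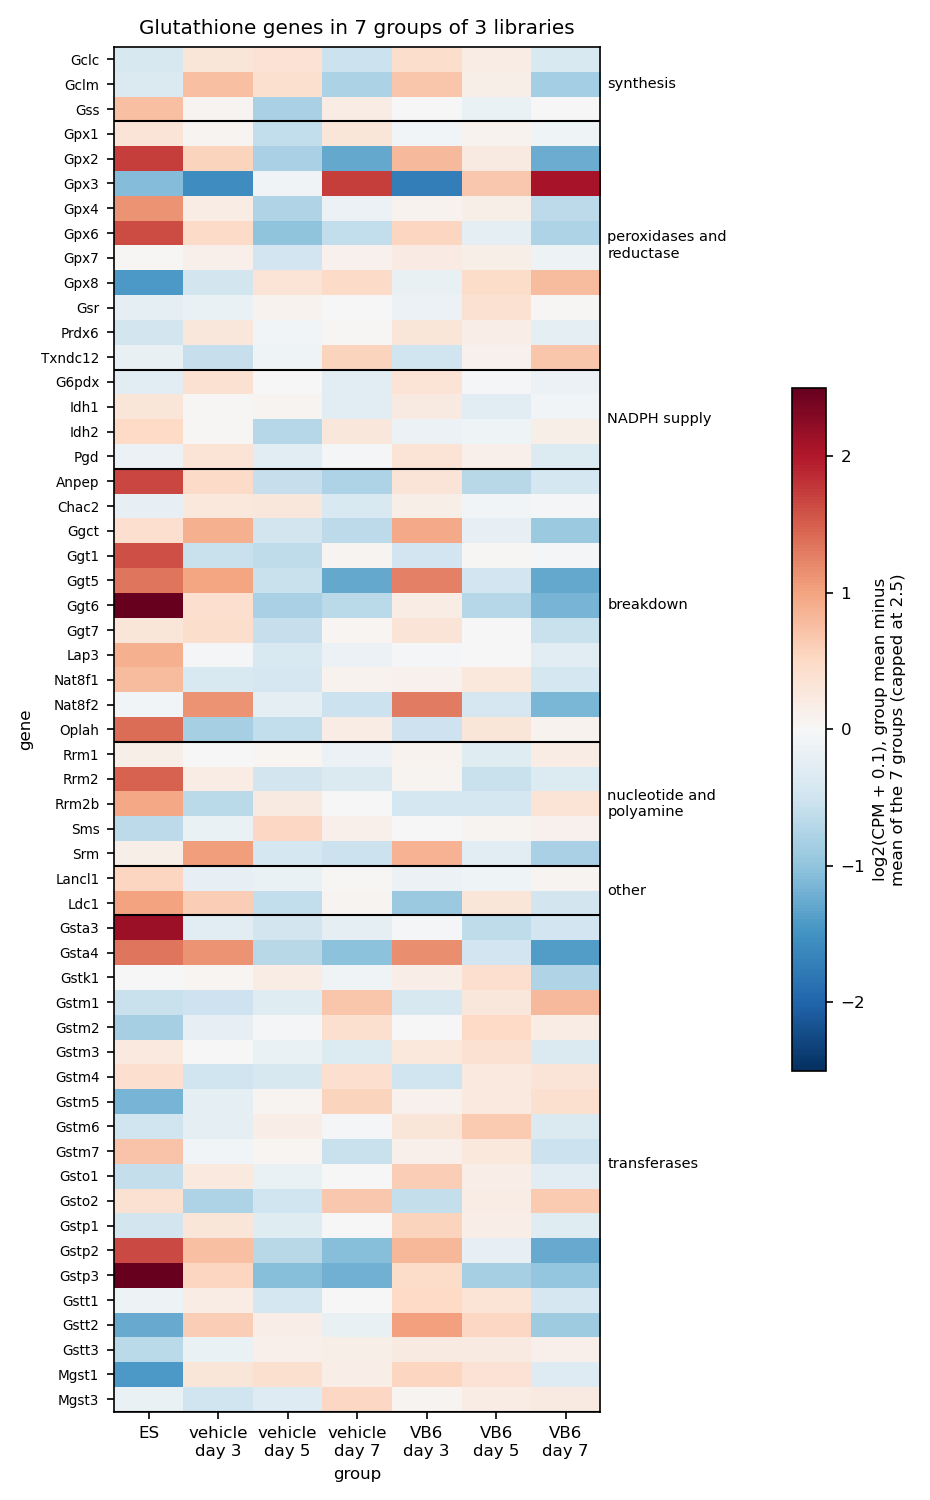
Heat map of the 55 tested members (rows, ordered by role) in the 7 groups (columns). Colour gives, as counted, the mean log2(CPM + 0.1) of 3 libraries minus the mean over the 7 groups, with colours capped at the ends of the scale; 23 members are highest in ES, and Gpx3 is highest in VB6 day 7.

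Leaving ES culture, both subunits of glutamate-cysteine ligase rose while glutathione synthetase, most breakdown genes and most peroxidases fell. In edgeR's quasi-likelihood test with Benjamini-Hochberg adjustment over all 18901 genes, 18 members were higher and 27 lower in vehicle day 3 than in ES, against 33.1% of all genes higher and 31.8% lower. Because these are bulk libraries, fewer cells of a type and less RNA per cell cannot be told apart here or in any later comparison.

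Among the synthesis genes, Gclm (chr3:122245557-122270732 in GENCODE M21, mm10) had 66.2, 61.4 and 63.3 CPM in the ES libraries and 137, 144 and 133 in vehicle day 3. The 2 groups did not overlap, and the log2 fold change was 1.12 ± 0.06 (SE), adjusted p = 6.03e-14. Gclc (chr9:77754535-77794485) went from 64.6, 68.4 and 67.7 CPM to 104, 109 and 114, again without overlap, a log2 fold change of 0.70 ± 0.05 (SE), adjusted p = 2.66e-11. Gss moved the opposite way to both ligase subunits, from 42.4 ± 0.955 to 26.5 ± 1.23 CPM (SD, n = 3), log2 fold change -0.68.

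Of the 10 tested peroxidase and reductase genes, 2 rose and 6 fell. Gpx4 (chr10:80047166-80056439) had 533, 523 and 592 CPM in ES and 309, 284 and 266 in vehicle day 3, groups that did not overlap, and it fell by 0.94 on the log2 scale (SE 0.06, adjusted p = 2.7e-12). Of the 50-base words of Gpx4 transcripts 34.7% are shared with other genes, most often the pseudogene Gpx4-ps2. The Gpx4 level is thus uncertain where the authors' counting could divide reads. Gpx2, an intestinal-type peroxidase, fell by 1.22, Gpx6 by 1.26 and Gpx3 by 0.48. Gpx1, the cytosolic peroxidase, fell by 0.24 as counted but had a corrected log2 fold change of 0.04. The risers were Prdx6, a peroxiredoxin that uses glutathione (0.75 ± 0.05, SE), and Gpx8, an endoplasmic reticulum peroxidase (1.01 ± 0.22, SE), whereas Gsr, the reductase, had a log2 fold change of 0.06 that did not pass the test.

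In NADPH supply, the pentose phosphate enzymes G6pdx (0.65) and Pgd (0.49) rose and the isocitrate dehydrogenases Idh1 (-0.28) and Idh2 (-0.48) fell. In breakdown, 6 of 11 tested genes fell and 3 rose. The gamma-glutamyl transferase Ggt1, which cleaves extracellular glutathione, had 21.8, 20.9 and 20.98 CPM in ES and 4.24, 4.39 and 5.53 in vehicle day 3, a log2 fold change of -2.16 ± 0.14 (SE), adjusted p = 3.46e-12. Oplah, the 5-oxoprolinase that returns glutamate to the cycle, fell by 2.24, and Anpep, an aminopeptidase that splits cysteinylglycine, by 1.21. Ggt6 was also lower (-2.57, from a mean of 1.85 CPM), while Nat8f2, an acetyltransferase family member at low level, was higher (1.41, adjusted p = 0.0293). Among nucleotide and polyamine genes the ribonucleotide reductase subunits Rrm2 (-1.30) and Rrm2b (-1.67) fell, and the spermidine synthase Srm (0.90) and spermine synthase Sms (0.50) rose. Lancl1, a glutathione-binding protein, fell by 0.76.

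Transferases moved in both directions in this step, with 7 higher and 8 lower of 20, and the mu class alone held 2 that rose and 2 that fell. The theta class enzyme Gstt2 (chr10:75831114-75837424) had 7.22, 8.46 and 9.44 CPM in ES and 31.3, 29.98 and 30.7 in vehicle day 3, without overlap, a log2 fold change of 1.87 ± 0.09 (SE), adjusted p = 1.38e-14. The microsomal Mgst1 rose from 1.81 ± 0.340 to 6.24 ± 0.772 CPM (SD, n = 3), log2 fold change 1.78, and the omega class Gsto1 from 20.3 ± 0.801 to 36.6 ± 2.67 CPM, log2 fold change 0.85. Pi class genes went in both directions, with Gstp1 up by 0.76, Gstp2 down by 0.90 and Gstp3 down by 2.76 on the log2 scale. Gstp1 and Gstp2 share 33.7% and 54.3% of their 50-base words with other genes, most often each other, so counts could be divided between them. In the alpha class Gsta3 fell from 2.48 ± 0.391 to 0.505 ± 0.397 CPM, and Gsta4 by 0.21 on the log2 scale. Gstm1, Gstk1 and Gstt1 had log2 fold changes of 0.03, 0.01 and 0.32 that did not pass the test.

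From vehicle day 3 to vehicle day 7 the ligase subunits fell back and Gpx3 became one of the strongest members, while the alpha class enzyme Gsta4 and the 3 tested pi class genes fell and 4 of 7 tested mu class genes rose. Neither group is among those with short fragments. Of the 55 tested members, 18 were higher and 23 lower, against 34.3% of all genes higher and 33.1% lower.

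Gclm had 49.9, 44.9 and 45.7 CPM in vehicle day 7, below each library of both vehicle day 3 and ES, and fell by 1.56 ± 0.06 (SE) on the log2 scale from day 3 (adjusted p = 1.31e-16). Gclc had 62.3, 59.4 and 60.8 CPM, and fell by 0.84 ± 0.05 (SE), adjusted p = 8.49e-13. Gss had 28.6 ± 2.40 CPM (SD, n = 3), log2 fold change 0.11, which did not pass the test.

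Gpx3 (chr11:54902453-54910377) had 37.6, 38.2 and 37.3 CPM in vehicle day 3 and 387, 367 and 344 in vehicle day 7. That is a log2 fold change of 3.28 ± 0.10 (SE), adjusted p = 1.02e-18, with every day 7 library above every other vehicle or ES library. Gpx8 rose by 0.95, Gsr by 0.17 and Gpx1 by 0.23, whereas Gpx2 fell by 2.001, Gpx6 fell by 1.499, Gpx4 by 0.32 and Prdx6 by 0.25. Gpx6 was low, at 0.111, 0.117 and 0.226 CPM in vehicle day 7. Its call was lost without vehicle day 3 replicate 2, or without vehicle day 7 replicate 1 or 2. In NADPH supply G6pdx, Pgd and Idh1 fell by 0.66, 0.38 and 0.30, and Idh2 rose by 0.26.

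Among breakdown genes 2 rose and 5 fell of 11. Ggt1 (0.63) and Oplah (1.02) rose from their day 3 level and Anpep fell by 1.25, to 10.5 ± 0.406 CPM (SD, n = 3). Srm had 206, 203 and 187 CPM in vehicle day 3 and 66.5, 69.1 and 63.5 in vehicle day 7, below the ES libraries as well, a log2 fold change of -1.58 ± 0.06 (SE), adjusted p = 1.19e-16. Rrm2 fell by 0.54, and Rrm2b and Sms rose by 0.69 and 0.28.

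For the transferases 7 rose and 6 fell of 20, and 6 rose and 8 fell when corrected. In the corrected fit 5886 of all 17407 genes rose and 6717 fell. Gsta4 (chr9:78182774-78209349), an alpha class enzyme known for acting on the lipid peroxidation product hydroxynonenal, had 197, 204 and 187 CPM in vehicle day 3 and 40.4, 47.2 and 45.6 in vehicle day 7. The groups were far apart, with a log2 fold change of -2.14 ± 0.08 (SE), adjusted p = 2.44e-16. All 3 tested pi class genes fell, Gstp1 by 0.29, Gstp2 by 1.82 and Gstp3 by 2.43, and Gstt2 fell by 0.79. Gstp3 had only 0.166, 0.0584 and 0 CPM in the vehicle day 7 libraries, levels that a count of 0 would also allow. In the mu class 4 of 7 tested genes rose and none fell. Its leading member Gstm1 (chr3:108012255-108017973) had 41.1, 39.2 and 41.3 CPM in vehicle day 3 and 90.9, 97.7 and 94.6 in vehicle day 7, a log2 fold change of 1.22 ± 0.09 (SE), adjusted p = 4.8e-11. Mgst3, a microsomal enzyme, rose by 1.02, and Mgst1 had a value of -0.16 that did not pass the test.

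**Figure D2:**
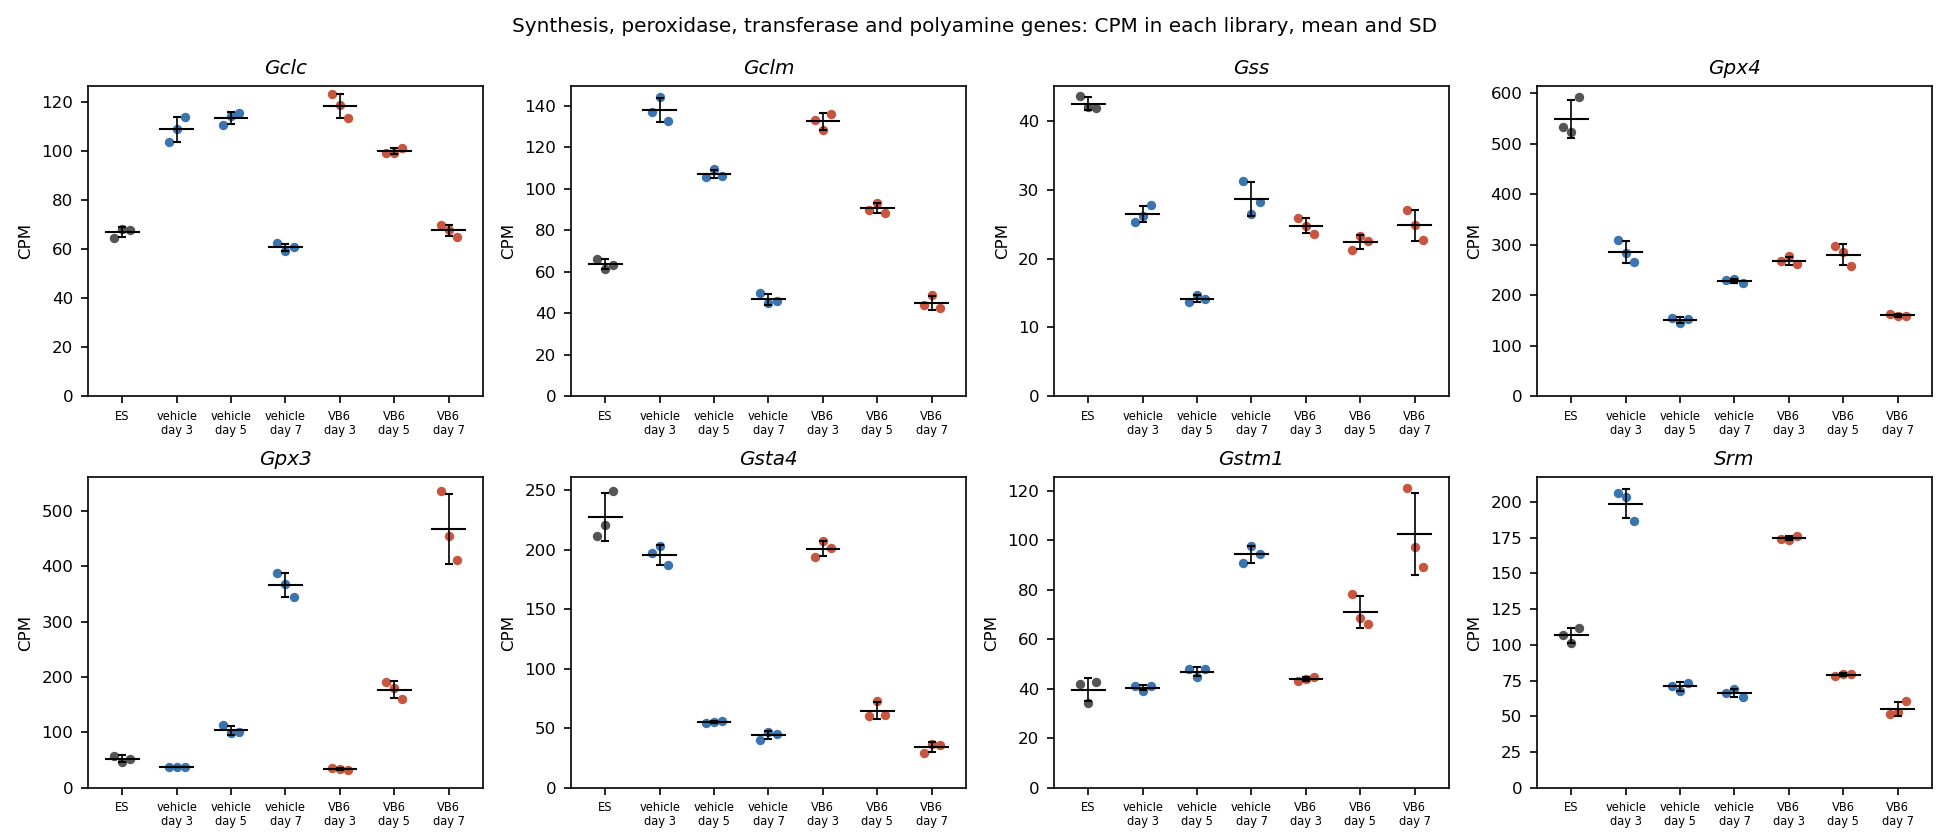
CPM as counted (linear axis from 0) of Gclc, Gclm, Gss, Gpx4, Gpx3, Gsta4, Gstm1 and Srm in each library of the 7 groups, with the mean (line) and SD (bar) of 3 libraries. Gclm and Srm are highest at day 3 and lowest at day 7, and Gpx3 in vehicle lies between 37.3 and 38.2 CPM at day 3 and between 344 and 387 at day 7.

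In the VB6 arm, day 5 was compared with day 3, and neither of these groups is among those with short fragments. There 12 members were higher and 20 lower, against 29.9% of all genes higher and 26.4% lower. With limma on log2(TPM + 1), 16 members were higher and 15 lower, against 32.6% and 15.7% of all genes. Gpx3 had 35.1, 33.6 and 32.2 CPM in VB6 day 3 and 191, 179.9 and 161 in VB6 day 5, a log2 fold change of 2.40 ± 0.09 (SE), adjusted p = 9.31e-16. Gsta4 fell by 1.63, Srm by 1.14, Gstp2 by 1.03, Gclm by 0.55 and Gclc by 0.25, while Gstm1 rose by 0.69 and Gsr by 0.52. Prdx6 fell by 0.14 as counted, and its log2(TPM + 1) difference was 0.09.

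The steps into and out of vehicle day 5 rest on the libraries with short fragments, and their counts moved with the scale used. From vehicle day 3 to day 5, 9 members were higher and 28 lower as counted, against 31.9% and 33.4% of all genes. Corrected, 16 were higher and 21 lower, against 31% and 33.1%. With limma on log2(TPM + 1), 21 were higher and 14 lower, against 45.1% and 18.1%. From vehicle day 5 to day 7, 22 members were higher and 12 lower as counted, against 35.2% and 31.1% of all genes. Corrected, 14 were higher and 20 lower, against 29.2% and 31%, and with limma on log2(TPM + 1), 14 were higher and 15 lower, against 23.1% and 37.7%. Gclm shows the divergence most plainly, with a mean of 107 CPM and 139 TPM in vehicle day 5 against 138 CPM and 58.0 TPM in vehicle day 3. Prdx6 went from 253 CPM and 186 TPM in vehicle day 3 to 197 CPM and 290 TPM in vehicle day 5. No direction is given for single members in these 2 steps.

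VB6 at day 3 was set against vehicle at day 3 to show the response to pyridoxine at the earliest time. A set of transferases from the theta, omega, mu, pi and microsomal classes was called higher with VB6, by 1.19-fold to 1.47-fold. No member of any other role was called higher. Of the 20 tested transferases 7 rose and none fell, against 1.49% of all genes higher and 2.77% lower. Of the 35 other members none rose and 1 fell, the low-count gene Ldc1. The median log2 fold change was 0.23 over the transferases, with 17 above 0, and 0.02 over the others, against -0.01 over all genes tested. Whether transferases differ from other genes was not tested.

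Mgst3 (chr1:167371966-167393841) had 14.5, 11.9 and 12.8 CPM with vehicle and 19.8, 20.0 and 17.9 with VB6. Its log2 fold change was 0.55 ± 0.12 (SE), adjusted p = 0.0101, with no overlap between the groups. Gstt2 had 31.3, 29.98 and 30.7 CPM with vehicle and 43.0, 38.1 and 40.9 with VB6, log2 fold change 0.41 ± 0.08 (SE), adjusted p = 0.00418. Each VB6 library was above each vehicle library, and VB6 day 3 was the highest of the 7 groups for Gstt2.

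Gsto1 (chr19:47854970-47864790) had 39.0, 37.0 and 33.7 CPM with vehicle and 46.7, 48.7 and 46.9 with VB6, log2 fold change 0.38 ± 0.07 (SE), adjusted p = 0.00334. It likewise showed no overlap, and its day 3 VB6 libraries were above all others of the study. Gstp1 (chr19:4035407-4037985) had 117, 108 and 108 CPM with vehicle and 130.0, 131 and 134 with VB6, log2 fold change 0.25 ± 0.06 (SE), adjusted p = 0.0132. Gstp2, its near-identical neighbour, had a log2 fold change of 0.08 that did not pass the test.

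Gstt3 (chr10:75774115-75781414) had 13.8, 10.7 and 11.8 CPM with vehicle and 17.5, 15.0 and 14.9 with VB6, log2 fold change 0.38 ± 0.10 (SE), adjusted p = 0.032. Part of its exons (13.6%) overlaps the read-through gene model Gm20441, so counts could be divided there. Gstm6 (chr3:107938847-107943749), at a lower level, had 3.53, 3.43 and 3.74 CPM with vehicle and 5.47, 4.81 and 5.19 with VB6, log2 fold change 0.53 ± 0.15 (SE), adjusted p = 0.0425. The seventh, Gstm5 (chr3:107895821-107898686), which the naming rule did not cover and which was chosen after its values were seen, had a log2 fold change of 0.32 ± 0.08 (SE), adjusted p = 0.0221. It overlaps an antisense gene over 13.9% of its exons. Of these 7 genes only Gstm5 held the motif shown above, with no window at hand for Gstt2.

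**Figure D3:**
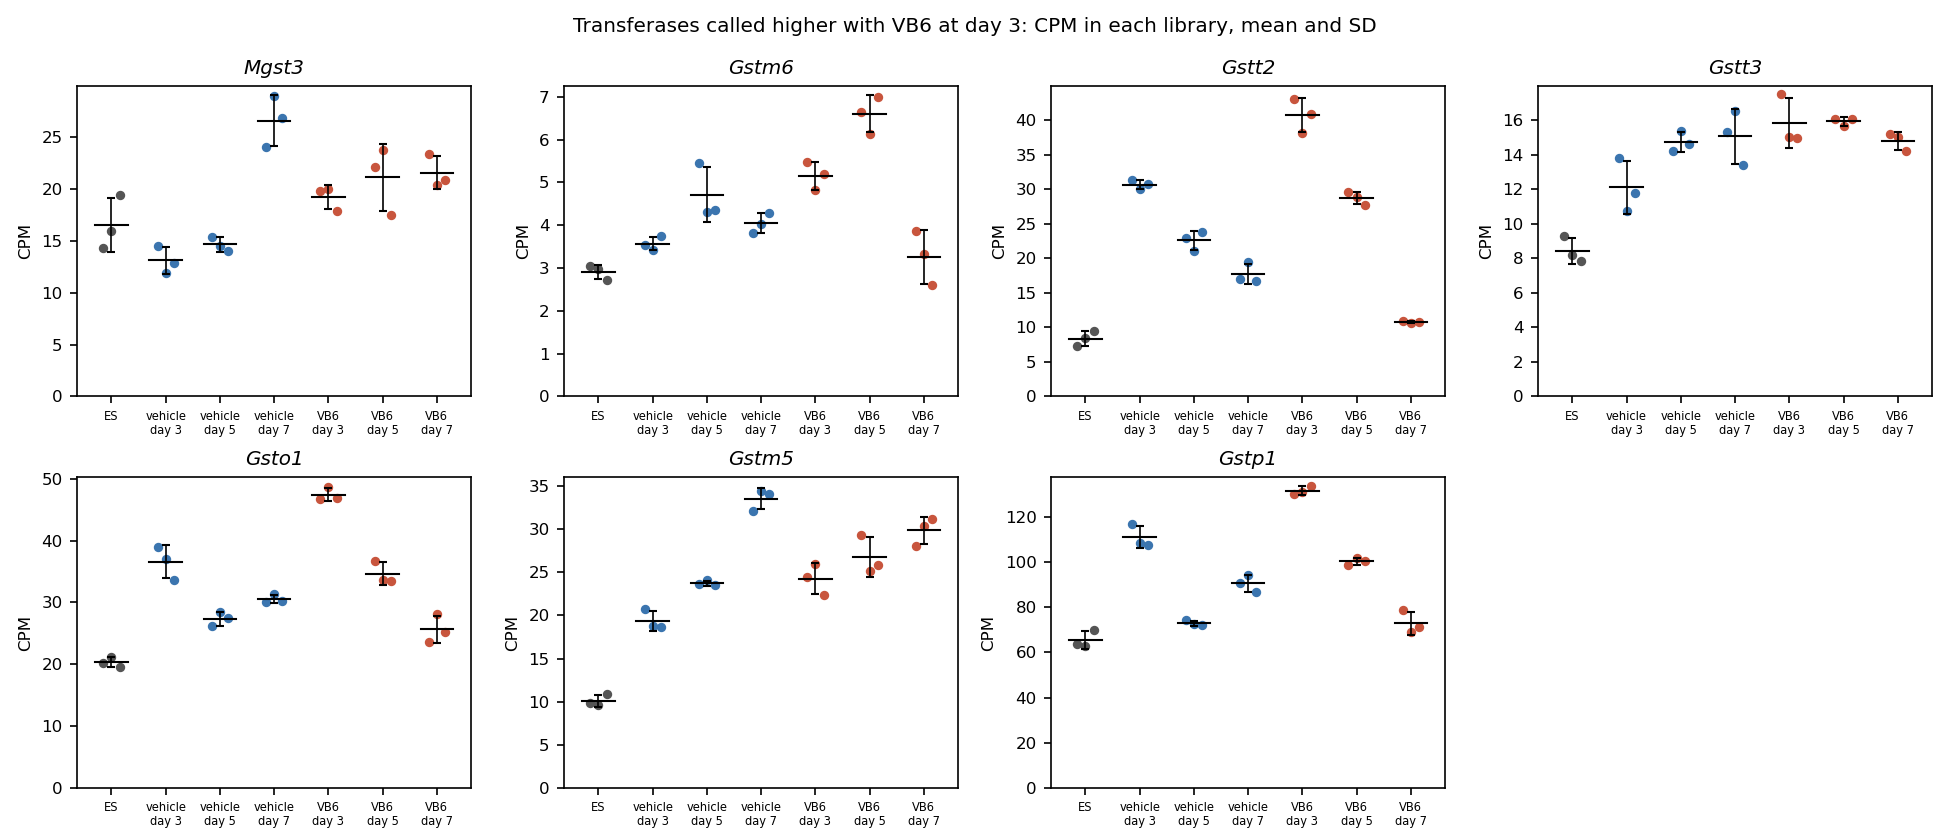
CPM (linear axis from 0) of the 7 transferases called higher with VB6 at day 3, in each library of the 7 groups, with the mean (line) and SD (bar) of 3 libraries. At day 3 every VB6 library lies above every vehicle library for each gene; Gstt2 in VB6 lies between 10.6 and 10.8 CPM at day 7.

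Among transferases that did not pass the test, Gstm1 had 40.6 ± 1.14 CPM with vehicle and 44.0 ± 0.845 with VB6 (SD, n = 3; log2 fold change 0.12), Gstt1 a value of 0.32, Mgst1 0.22, Gstk1 0.16, Gsta4 0.04, Gstp3 -0.02 and Gsta3 -0.13. On the TPM scale the transferases summed to 940 to 957 in the vehicle day 3 libraries and 1024 to 1035 in the VB6 day 3 libraries. Synthesis genes stayed below the threshold, with log2 fold changes of 0.12 for Gclc, -0.06 for Gclm and -0.10 for Gss. So did the peroxidases, with -0.09 for Gpx4, -0.13 for Gpx1, -0.17 for Gpx3 and 0.01 for Prdx6. Ldc1, a decarboxylase relative, had 0.824, 1.20 and 0.368 CPM with vehicle and 0.357, 0.0481 and 0.247 with VB6, log2 fold change -1.88 ± 0.53 (SE), adjusted p = 0.046. The libraries did not overlap, but the log2(TPM + 1) difference was -0.02 and the call was lost with the replicate block.

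**Figure D4:**
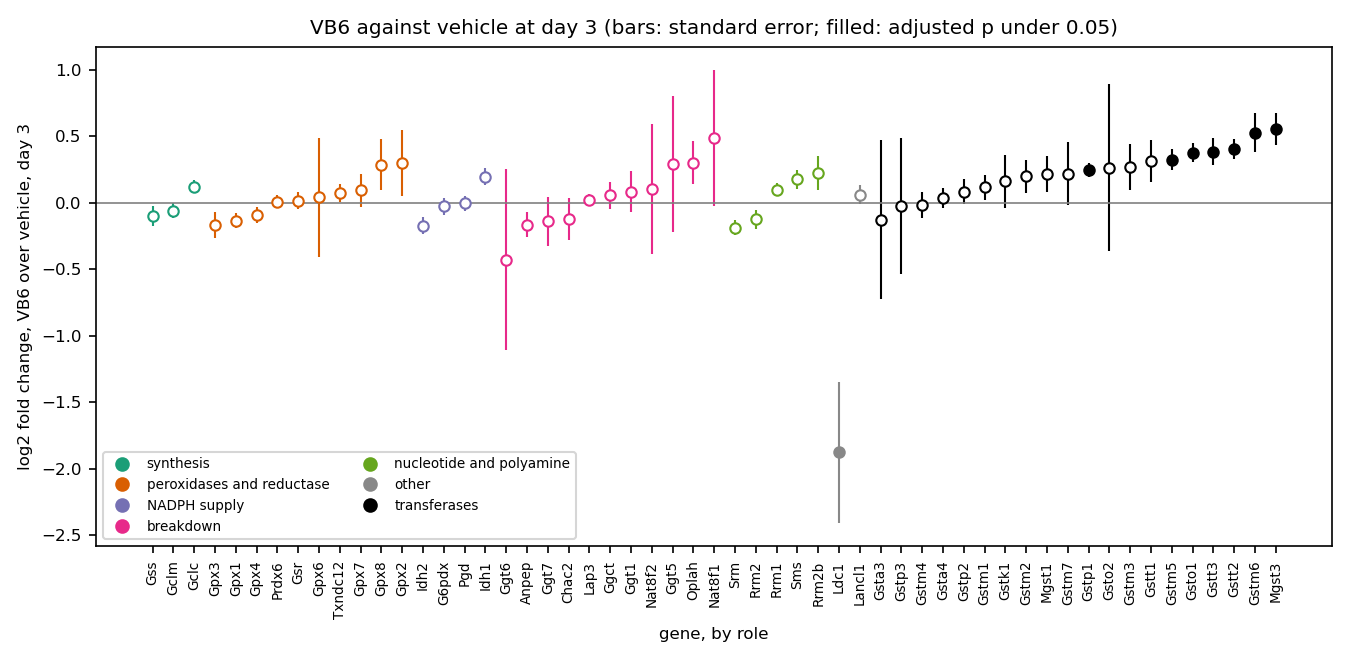
Log2 fold change of VB6 over vehicle at day 3 (y axis) for the 55 tested members (x axis, grouped and coloured by role), with standard errors as bars and filled points for adjusted p under 0.05. The 7 filled transferases lie between 0.25 and 0.55, and Ldc1 is the only filled point below 0.

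The day 3 calls are close to the threshold. Corrected, 5 transferases (Mgst3, Gsto1, Gstp1, Gstt2 and Gstt3) were higher and Ldc1 was lower, against 2.86% and 4.22% of all genes. With limma on log2(TPM + 1), 3 transferases were higher and none of the members lower, against 0.302% and 1.16%. The number of called members, 8 with all libraries, fell to 2 without vehicle replicate 2 and to 3 without VB6 replicate 2. It was 4 without vehicle replicate 3, VB6 replicate 1 or VB6 replicate 3. Without vehicle replicate 1 it was 7, but Gstm6 and Ldc1 were not among them. Gstm6 lost its call in every omission, whereas Gsto1 and Gstt2 kept theirs in each. Over all genes the same omissions gave 191 to 888 calls in place of 805. The 2 day 3 groups had like fragment lengths, 313 nt ± 4.33 with vehicle and 309 nt ± 3.40 with VB6 (SD, n = 3). Pluripotency markers moved with the comparison, at a summed 1223 to 1376 TPM with vehicle and 1039 to 1049 with VB6, whereas the 7 visceral endoderm and hepatic markers summed to 94.9 to 111 and 100.5 to 113 TPM. Epiblast markers summed to 817 to 948 TPM with vehicle and 731 to 807 with VB6, and definitive endoderm markers to 9.48 to 13.2 and 7.39 to 9.17. The ribosomal protein share of counts was 5.52% to 6.06% with vehicle and 6.23% to 6.48% with VB6, and the mitochondrial share 2.34% to 2.57% and 2.65% to 2.94%. Apart from the visceral endoderm and hepatic sum, none of these ranges overlapped between the groups. The genes within that sum did not move alike in CPM. Afp, Ttr, Apoa1 and Apob were higher with VB6 without overlap, Amn was lower without overlap, and Cubn and Rbp4 overlapped. The neural, mesoderm, fibroblast and blood marker sums did overlap. Within the pluripotency list Nanog and Esrrb overlapped in CPM, with Nanog at 129, 129 and 136 with vehicle and 152, 153 and 134 with VB6. Among the epiblast markers only Pou3f1 was lower with VB6 without overlap in CPM, and Fgf5, Otx2 and Dnmt3b overlapped. Among the definitive endoderm markers only Sox17 was lower without overlap, and Foxa2, Gsc and Cxcr4 overlapped. The part of these markers and shares in the transferase result was not tested.

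At day 5 VB6 was set against vehicle libraries with short fragments. As counted, 28 members were higher and 6 lower with VB6, against 31.2% and 25.5% of all genes, and 12 of 20 transferases were higher. Corrected, 8 were higher and 6 lower, against 17.4% and 18%, and only 1 transferase was higher and 2 were lower. With limma on log2(TPM + 1), 14 were higher and 11 lower, against 16% and 35.4%. The fragment length and the treatment cannot be told apart in this comparison.

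Gss is a member that passed both as counted and corrected at day 5. It had 13.7, 14.7 and 14.2 CPM with vehicle and 21.3, 23.3 and 22.5 with VB6, without overlap, a log2 fold change of 0.66 ± 0.08 (SE), adjusted p = 2.95e-07, and corrected 0.34 ± 0.08 (SE), adjusted p = 0.000973. Gpx3 had 113, 99.0 and 100.1 CPM with vehicle and 191, 179.9 and 161 with VB6, a log2 fold change of 0.77 and corrected 0.22, adjusted p = 0.0444 in the corrected fit. Pgd (0.39, corrected 0.15) and Gsr (0.29, corrected 0.19) were higher and Gclc (-0.18, corrected -0.13) lower in both. Gclm had -0.24 as counted and -0.01 corrected, while its mean TPM was 139 with vehicle and 46.5 with VB6. Beside these values, visceral endoderm and hepatic markers summed to 666 to 856 TPM with vehicle and 1085 to 1222 with VB6, and definitive endoderm markers to 17.7 to 23.3 and 48.1 to 64.8. In CPM Apob, Cubn, Gsc and Cxcr4 overlapped between the groups, and the rest of both lists was higher with VB6 without overlap. The part of these markers in the day 5 values was not tested.

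Other members changed sign or did not pass when corrected at day 5. Gpx4 had 156, 144 and 152 CPM with vehicle and 298, 286 and 258 with VB6, a log2 fold change of 0.90, but a corrected value of -0.03. Gpx1 went from 0.71 to -0.09, and Gpx2 from 1.11 to 0.74 with a corrected adjusted p of 0.0585. Gstp1 was higher as counted (0.46) and lower when corrected (-0.33, adjusted p = 5.72e-06). The 7 transferases of day 3 had counted values from 0.11 to 0.53 and corrected values from -0.33 to 0.15, and Gstt1 had 0.78 and 0.11. Srm was 0.16 as counted and -0.71 corrected, and Idh1, Idh2, Sms and Rrm2b, called as counted, did not pass when corrected. Oplah (0.92, corrected 0.24), Ggt1 (0.68, corrected -0.03) and Ggt7 (0.65, corrected -0.17) did not pass when corrected either.

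At day 7 it was the VB6 libraries that had the shorter fragments. As counted, 6 members were higher and 15 lower with VB6, against 18.6% and 17.9% of all genes, and 7 of 20 transferases were lower and none higher. Corrected, 7 were higher and 7 lower, against 12.6% and 13.2%, with 2 transferases higher and 1 lower. With limma on log2(TPM + 1), 14 were higher and 3 lower, against 35.9% and 7.39%.

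Gpx3 had 387, 367 and 344 CPM with vehicle and 535, 454 and 411 with VB6 at day 7. The groups did not overlap, and the log2 fold change was 0.35 ± 0.08 (SE), adjusted p = 0.00189, and corrected 0.61 ± 0.08 (SE), adjusted p = 2.27e-06. The summed TPM of visceral endoderm and hepatic markers also separated, at 2735 to 2904 with vehicle and 3257 to 4211 with VB6. The list did not move as a whole. In CPM, Afp, Apob and Cubn were higher with VB6 without overlap, Apoa1 and Amn were lower without overlap, and Ttr and Rbp4 overlapped. On log2(TPM + 1) the median of all genes was 0.19 in this comparison. The part of these markers in the Gpx3 value was not tested. Gstt2, raised at day 3, had 17.1, 19.4 and 16.7 CPM with vehicle and 10.8, 10.6 and 10.8 with VB6, again without overlap but in the opposite direction. Its log2 fold change was -0.72 ± 0.09 (SE), adjusted p = 1.7e-06, and corrected -0.38 ± 0.08 (SE), adjusted p = 0.00106.

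Anpep (0.35, corrected 0.46) was higher and Pgd (-0.29, corrected -0.23) and Prdx6 (-0.26, corrected -0.18) were lower in both fits, though Prdx6 was 0.56 on log2(TPM + 1). Gstm1 passed only when corrected, at 0.43 against 0.12 as counted. Gstp1 was -0.31 as counted and 0.22 corrected, and Srm -0.27 and 0.20, each past the threshold in both fits with opposite signs. Gpx4 (-0.52, corrected 0.07), Gpx1 (-0.42, corrected 0.08), Gsta4 (-0.37, corrected -0.12), Gstk1 (-0.68, corrected -0.38), Mgst1 (-0.46, corrected -0.37), Mgst3 (-0.30, corrected -0.04) and Gsto1 (-0.25, corrected 0.00) were lower as counted and did not pass when corrected. Gclc, Idh1 and Rrm2b were higher as counted and Gss and Ggt7 lower, and none of the 5 passed when corrected. Gclm had 45.1 ± 3.40 CPM with VB6 and 46.8 ± 2.68 with vehicle (SD, n = 3), and 59.3 and 25.6 TPM.

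**Figure D5:**
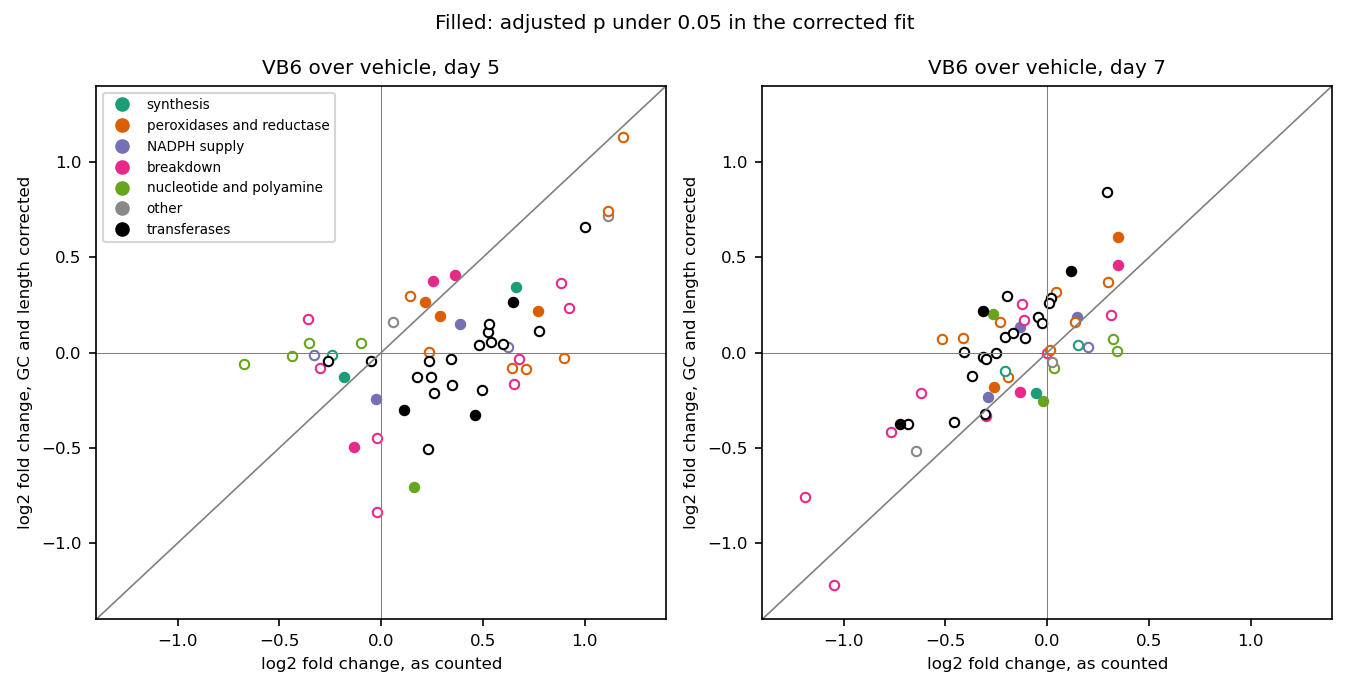
Log2 fold change of VB6 over vehicle as counted (x axis) and with the GC and length offset (y axis) for the 55 tested members at day 5 and day 7, coloured by role and filled where the corrected adjusted p is under 0.05. The line marks equal values; at day 5 most transferases lie below it (median 0.40 as counted, -0.04 corrected) and at day 7 most lie above it (median -0.23 and 0.08).

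A single test asked whether the VB6 difference was the same on the 3 days. It was called for 38 of 55 members, against 60% of all genes, and corrected for 23, against 42.1%. Among the transferases 15 of 20 were called as counted and 8 corrected. The members' share was thus close to that of all genes, and the groups with short fragments enter 2 of the 3 differences.

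Genes outside the map were read from 3 lists that frame it. Of 13 genes of cystine import and the NRF2 response, 8 rose and 3 fell from ES to vehicle day 3, against 33.1% and 31.8% of all genes. The cystine transporter subunit Slc7a11 went from 0.454 to 1.84 mean CPM, log2 fold change 1.998, and Hmox1, Txnrd1, Prdx1 and Nfe2l2 itself rose by 0.91, 0.50, 0.50 and 0.37. Slc3a2 went the other way, from 346 to 210 mean CPM, and Abcc1 was also lower without overlap. Nqo1 overlapped between the groups, at a mean of 9.30 CPM in ES and 8.36 in vehicle day 3. From vehicle day 3 to day 7 the list had 1 riser, the NRF2 inhibitor Keap1 (1.35), and 7 that fell, among them Prdx1 (-1.04) and Nfe2l2 (-0.32), against 34.3% and 33.1% of all genes. With VB6 at day 3 only thioredoxin, Txn1, was called among these 13 (0.37, adjusted p = 0.0344).

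All 6 genes listed around transsulfuration, the route from methionine to cysteine, fell from vehicle day 3 to day 7, where 33.1% of all genes fell. Cbs was at -1.63, Cth at -1.51 and Gnmt at -3.30. Not every gene on this list makes cysteine, so the 6 falls are not a measure of its supply. From ES to vehicle day 3, Cbs and Cth had already fallen by 1.11 and 1.31, while Mat2a rose by 1.19. None of the 6 was called with VB6 at day 3, when 2 had an unadjusted p under 0.05, as did 3750 of all 18901 genes. Among 10 tested users and carriers of glutathione, only Esd was called with VB6 at day 3 (0.28, adjusted p = 0.0252), and the prostaglandin synthase Ptges fell by 1.93 from ES to vehicle day 3 and rose by 1.23 by day 7.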

How the data were processed

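The authors deposited 1 estimated count per gene and library for 21 libraries, partly not whole numbers, with TPM and FPKM values made by the authors from the same libraries. The genome build is mm10 per the submitters' processing notes. Which aligner, counter and gene models were used was not given in the sources used here. Small RNA enrichment is described in the labels' protocols, and whether that text applies to these gene-level tables is not known. Deposited FPKM values served, with the counts, to derive effective gene lengths and fragment lengths. Counts were rounded to whole numbers. All 21 libraries entered 1 edgeR (4.0.16) quasi-likelihood fit with 7 group means, TMM and filterByExpr, and calls are at a Benjamini-Hochberg adjusted p under 0.05. CPM values carry TMM factors. The corrected fit used a robust spline (5 df) over GC content (GENCODE M21) and effective length in 17407 genes (92.1%). Alternatives were DESeq2 (1.42.0), its size factors, other filters, only the groups compared, a replicate block, limma (3.58.1) on log2(TPM + 1) and log2(TPM + 0.1), and leaving out each library. In a simulation of the day 5 comparison the procedure recovered 87% of genes changed by 1 on the log2 scale. Of genes changed by 0.5 it recovered 16%, and changes of 0.5 or less can go uncalled. It made 3 false calls. The simulation gave every gene the same excess spread and changed few genes, unlike the real libraries, so its rates need not apply to them. In the real day 5 comparison Gclc was called at -0.18. Replicate pairs differed by more than sampling noise. The members and lists were chosen with earlier results of these data known. Named genes are those set in advance by role, the up to 4 widest-ranging members of each role, and the up to 6 largest calls of each VB6 comparison without overlap.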

Additional observations from a re-analysis of the deposited data

Results flagged for a closer look

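For 18 of the 41 named members the VB6 difference was not the same at days 3, 5 and 7, both as counted and with the GC and length offset, in edgeR's quasi-likelihood test of that difference. Of all genes 60% were called as counted and 42.1% with the offset, and the named members were in part chosen by the size of their VB6 differences, so the count shows nothing particular to them. Adjusted p-values below are as counted, and the groups with short fragments enter the day 5 and day 7 differences, so their share in these results cannot be told apart from treatment. Among transferases they were Gstt2 (2.74e-08), Gstp1 (5.31e-08), Gsto1 (1.15e-05), Mgst3 (6.41e-05), Gstp2 (0.0028), Gstm1 (0.00306) and Gstt3 (0.0449). Gstt2 was 0.41, 0.35 and -0.72 at days 3, 5 and 7, and corrected 0.34, -0.17 and -0.38. Among synthesis and peroxidase genes they were Gclc (0.000398), Gss (6.83e-07), Gpx1 (3.94e-10), Gpx3 (6.88e-06) and Prdx6 (5.22e-06). Gpx3 was -0.17, 0.77 and 0.35, and corrected -0.14, 0.22 and 0.61. In NADPH supply they were Idh2 (4.65e-08) and Pgd (8.79e-07). In the other roles they were Anpep (0.00443), Sms (3.16e-05), Srm (0.000292) and Ldc1 (0.00557).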

How the results depend on the processing

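Counts of called members kept within 1.5 times the values above in all 9 comparisons under DESeq2, its size factors, either filter, only the groups compared and the replicate block. At VB6 day 3 the count was 5 with the offset and replicate block, 3 with log2(TPM + 1) and 2 with log2(TPM + 0.1), and 2 to 7 when 1 library was left out. At VB6 day 5 it was 14 with the offset, with or without the replicate block. The test between days gave 23 with the offset, with or without the block, and 25 on either TPM scale. The causes were not tested. Same-numbered libraries did not deviate together (r from -0.148 to 0.0781), so the numbers were not taken as pairs, and the replicate block alone moved the day 3 count from 8 to 7. The median of all genes moved on log2(TPM + 1) to -0.13 at VB6 day 5, 0.19 at VB6 day 7, 0.24 and -0.13 in the vehicle steps into and out of day 5, and 0.12 from VB6 day 3 to day 5.

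Of 2319 alternative values for 145 called differences of named members, 2018 kept direction and call, 250 kept direction only and 51 changed sign. With the GC and length offset, and in brackets where the replicate block added to it gave another value, log2 differences at VB6 day 5 were Ggt1 -0.033, Ggt7 -0.17 (-0.18), Gpx1 -0.086, Gpx4 -0.028 (-0.030), Gsta4 -0.042 (-0.046), Gsto1 -0.036 (-0.037), Gstp1 -0.33, Gstp2 -0.20 (-0.19), Gstt2 -0.17 and Srm -0.71. At VB6 day 7 they were Gpx1 0.077, Gpx4 0.069 (0.068), Gstp1 0.22 and Srm 0.20. In vehicle day 3 against ES the value was Gpx1 0.042. On log2(TPM + 1), with log2(TPM + 0.1) in brackets where it differed, they were Ggt7 -0.013 (-0.026), Prdx6 -0.59 and Srm -0.22 at VB6 day 5, and Ggt7 0.045 (0.062), Gpx1 0.13, Gss 0.017 (0.018), Gsto1 0.046 (0.047), Prdx6 0.56 and Srm 0.0017 at VB6 day 7. From VB6 day 3 to day 5 they were Ldc1 -0.071 and Prdx6 0.093, and for Ldc1 only the first scale changed the sign.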
